A study of Rattus norvegicus with 16 samples.

Results

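The caspase family was followed across rat hippocampus after experimental traumatic brain injury (TBI). The 7 members, Casp1, Casp2, Casp4, Casp6, Casp8, Casp9 and Casp12, were those whose symbols stood as the gene name of a non-control probe, and they accounted for 7 of 22436 named genes, 10 of 30367 probes and 19 of 42877 spots on the array. Hippocampi came from Sprague-Dawley rats 24 h after severe fluid percussion injury or the equivalent time, and 16 single-colour arrays were analysed. Naive rats (n = 3) were neither anesthetized nor handled, Sham rats (n = 2) were prepared for injury but not injured, and TBI rats (n = 3) were injured without a drug. The 3 remaining groups were injured and given PMI (TBI+PMI, PMI-006 at 250 mg/kg by oral gavage, n = 3), JM6 (TBI+JM6, 400 mg/kg by oral gavage, n = 3) or estradiol (TBI+E33, 33 ug/kg, n = 2; subcutaneous in the sample records but intraperitoneal in the study's methods). All Naive, Sham and TBI arrays were scanned in one session and all drug-treated arrays in another, so for any drug-treated group against TBI the treatment and the scan session cannot be told apart. In the first session both Sham arrays lay on 1 slide with 2 Naive arrays, and all 3 TBI arrays on another with the third Naive array, so with the slide as a block TBI and Sham are compared only by way of Naive.

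Caspases are cysteine proteases made as inactive precursors. Initiator caspases are switched on by dimerization on a scaffold: caspase-8 below death receptors such as Fas and TNF receptor 1, caspase-9 on the Apaf1 apoptosome after cytochrome c leaves mitochondria, and caspase-2 on the PIDDosome. Executioner caspases, among them caspase-6, then cut structural proteins such as lamins. Inflammatory caspases form a separate branch: caspase-1 matures interleukin-1 beta and interleukin-18 on inflammasomes, and rodent caspase-4 (also called caspase-11) senses intracellular lipopolysaccharide and cuts gasdermin D. Caspase-12 is an inflammatory-type caspase that has been linked to endoplasmic reticulum stress. Because precursors are activated by cleavage, a transcript level gives no measure of protease activity.

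Each value below is a scaled signal, which is the scanner's processed intensity divided by the 75th percentile of the probes well above background on the same array. Differences between groups are on the log2 scale from 1 limma fit over all 16 arrays, with p-values adjusted by the Benjamini-Hochberg method over all tested probes, and a probe was called at an adjusted p under 0.05. All 10 caspase probes were among the 22825 tested. The probe with the highest mean signal stands for a gene unless another is named. The first session had 16567 to 18473 probes well above background per array and the second had 20263 to 25031. Neuronal markers (10 of 10) and markers of hippocampal fields (9 of 9) were in the tested set, which requires detection on every array of only 1 group. Rbfox3 (neuronal) was well above background on 0 of 3 TBI, 2 of 2 Sham and 0 of 3 Naive arrays. Prox1 (hippocampal) was so on 0 of 3, 0 of 2 and 1 of 3. Over all 16 arrays they were detected on 7 and 8, and every other gene of these 2 lists on at least 14.

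The probes are shown because a signal refers to only 60 bases of each transcript. They are printed in the order inflammatory, then initiator caspases, with positions on the rn4 rat genome, and they are shown for the genes called within a session, for Casp12, and for the Casp2 probe that contains the codons of the catalytic cysteine motif (capitals).
Casp1, chr8:2032917-2032976: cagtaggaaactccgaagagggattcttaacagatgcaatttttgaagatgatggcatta
Casp4, chr8:2075044-2075103: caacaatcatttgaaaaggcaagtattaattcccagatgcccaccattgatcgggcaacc
Casp12, chr8:2109935-2110430: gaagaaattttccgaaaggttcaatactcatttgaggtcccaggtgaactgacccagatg
Casp8, chr9:57428119-57435205: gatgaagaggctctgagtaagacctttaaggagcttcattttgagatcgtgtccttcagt
Casp9 first probe, chr5:160719541-160719600: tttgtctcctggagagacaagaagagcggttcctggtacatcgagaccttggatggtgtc
Casp9 second probe, chr5:160706833-160706892: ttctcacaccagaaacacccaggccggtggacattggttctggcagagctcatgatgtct
Casp2 second probe, chr4:70041272-70041331: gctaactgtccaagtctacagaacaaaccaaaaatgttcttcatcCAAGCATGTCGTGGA

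The probes of the inflammatory genes Casp1, Casp4 and Casp12 lay within 77.5 kb of each other on chromosome 8. The Casp8 and Casp12 probes covered 7087 and 496 bases of the genome with 60 bases of sequence, so both cross an intron. Over the 45 pairs of caspase probes the longest shared run was 8 bases, and the best ungapped alignment matched 27 of 57 positions.

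Among the inflammatory caspases, Casp4 was higher in TBI than in both uninjured groups. Its scaled signal was 0.121, 0.181 and 0.128 on the 3 Naive arrays and 0.0830 and 0.222 on the 2 Sham arrays. It was 0.482, 0.843 and 0.750 on the 3 TBI arrays. All 3 TBI values lay above all 5 uninjured values, and the Naive and Sham values overlapped. The share of all tested probes that separate groups in this way is not given, here or for the genes below. Casp4 rose 4.95-fold in TBI against Sham (log2 2.31, SE 0.40, adjusted p = 0.00834), where 2.92% of all tested probes were called higher and 6.46% lower. It rose 4.77-fold against Naive (log2 2.25, SE 0.36, adjusted p = 0.00707), where 2.98% were called higher and 1.73% lower. The call against Sham rested on Sham replicate 1, the lower of the pair: without it the difference was 1.60 on the log2 scale with an adjusted p of 0.0653. With the slide as a block the differences were 2.53 against Sham (adjusted p = 0.317) and 2.40 against Naive (adjusted p = 0.0866). The latter is the difference within the only slide that held both TBI and Naive arrays (3 and 1), so it rests on 1 Naive array. The difference kept its sign in every alternative setting, from 1.60 to 3.02 against Sham (adjusted p = 0.00232 to 0.343 over 16) and from 1.98 to 2.50 against Naive (0.00225 to 0.216 over 17).

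Casp1 was also highest in TBI among the first-session groups, and passed the test against Naive but not against Sham. Its scaled signals were 0.0262, 0.0561 and 0.0487 in Naive and 0.0663 and 0.0658 in Sham. They were 0.109, 0.112 and 0.153 in TBI. The 3 groups did not overlap and stood in the order Naive, Sham, TBI. TBI was 2.96-fold above Naive (log2 1.57, SE 0.29, adjusted p = 0.0128). Against Sham the ratio was 1.87 (log2 0.90, SE 0.32, adjusted p = 0.0968), and Sham against Naive gave log2 0.67 (adjusted p = 0.239). Without TBI replicate 3 the difference from Naive was 1.41 with an adjusted p of 0.0563. With the slide as a block it was 1.34 (adjusted p = 0.235), and over all 17 alternatives it was 1.11 to 1.78 (0.00454 to 0.264).

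Casp12, the third member of the cluster, was at the limit of detection in the first session. It was well above background on 1 of 8 arrays there (Naive replicate 2, at 0.0211) and the other 7 ranged from 0.00467 to 0.0132. Its probe was printed in 10 spots, and the SD of log2 intensity between spots of one array was 0.281 to 0.655. As 0 of 3 TBI and 0 of 2 Sham arrays were well above background, no fold is given between them.

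In the first session the initiator Casp8 was well above background on TBI arrays and on no others. None of the 5 uninjured arrays was well above background, with values of 0.00370, 0.00909 and 0.00769 in Naive and 0.0105 and 0.00987 in Sham. All 3 TBI arrays were, at 0.0542, 0.0291 and 0.0197. Because the uninjured groups give only an upper bound, the lowest signal among probes well above background was taken as the floor. Against the floor and under this scaling only, the TBI mean was at least 2.08-fold above Naive and at least 2.51-fold above Sham. No error is attached to these ratios, and another background correction (normexp) gave a log2 difference of 0.92 against each. The fit gave log2 2.30 against Naive (SE 0.46, adjusted p = 0.0179) and 1.63 against Sham (SE 0.51, adjusted p = 0.0641). The difference from Naive was 1.91 with an adjusted p of 0.0715 without Naive replicate 1, and 2.03 with an adjusted p of 0.266 with the slide as a block. Over its 16 alternatives it was 0.92 to 2.64 (adjusted p = 0.0113 to 0.805).

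Casp9, the apoptosome initiator, went the other way, and its 2 probes differed in size. On the first probe TBI values of 0.165, 0.154 and 0.169 lay below Sham values of 0.240 and 0.271, with Naive at 0.271, 0.168 and 0.188. The difference from Sham was -0.65 on the log2 scale (SE 0.22, adjusted p = 0.0835). On the second probe TBI values were 0.122, 0.0758 and 0.0908, Sham values were 0.213 and 0.313, and Naive values were 0.152, 0.0958 and 0.0862. This probe was called lower in TBI than in Sham (log2 -1.45, SE 0.27, adjusted p = 0.0100) and higher in Sham than in Naive (log2 1.26, SE 0.27, adjusted p = 0.0147), while TBI and Naive overlapped (log2 -0.19, adjusted p = 0.715). Neither call held in every setting. With the slide as a block, TBI minus Sham was -0.97 (adjusted p = 0.525) and Sham minus Naive 1.10 (adjusted p = 0.0656). Without Sham replicate 2 they were -1.17 (adjusted p = 0.0772) and 0.98 (adjusted p = 0.141), and Sham minus Naive was also not called without Naive replicate 3 (1.10, adjusted p = 0.0521). Over all tested probes, 6.55% were called higher and 1.52% lower in Sham than in Naive, so the Sham arrays stood apart from both other groups well beyond this gene.

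In the first session Casp2 was not called on any of its 3 probes. Its first probe gave 0.528, 0.577 and 0.390 in Naive, 0.322 and 0.466 in Sham, and 0.377, 0.516 and 0.403 in TBI, and these ranges overlapped (TBI minus Sham 0.14 on the log2 scale, 95% confidence interval -0.36 to 0.65). The second probe, which holds the catalytic codons, was well above background on 1 of 8 first-session arrays (TBI replicate 1, 0.0185), and the third probe on 7 of 8.

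The executioner Casp6 was lowest in Naive, at 0.0349, 0.0313 and 0.0402. Sham gave 0.0593 and 0.0665, and TBI gave 0.0423, 0.0745 and 0.0484, so both groups lay above Naive and overlapped each other. Sham minus Naive was 0.83 on the log2 scale (SE 0.24, adjusted p = 0.0530) and TBI minus Naive was 0.60 (SE 0.22, adjusted p = 0.133). Neither passed the test, and TBI minus Sham was -0.23 (adjusted p = 0.575). In all, beside 2.92% and 2.98% of all tested probes, 1 of 7 genes was called in TBI against Sham and 3 of 7 against Naive, all higher. None was called in Sham against Naive, where 1 (Casp6) had an unadjusted p under 0.05 in limma and 1 passed the methods' t-test.

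**Figure D1:**
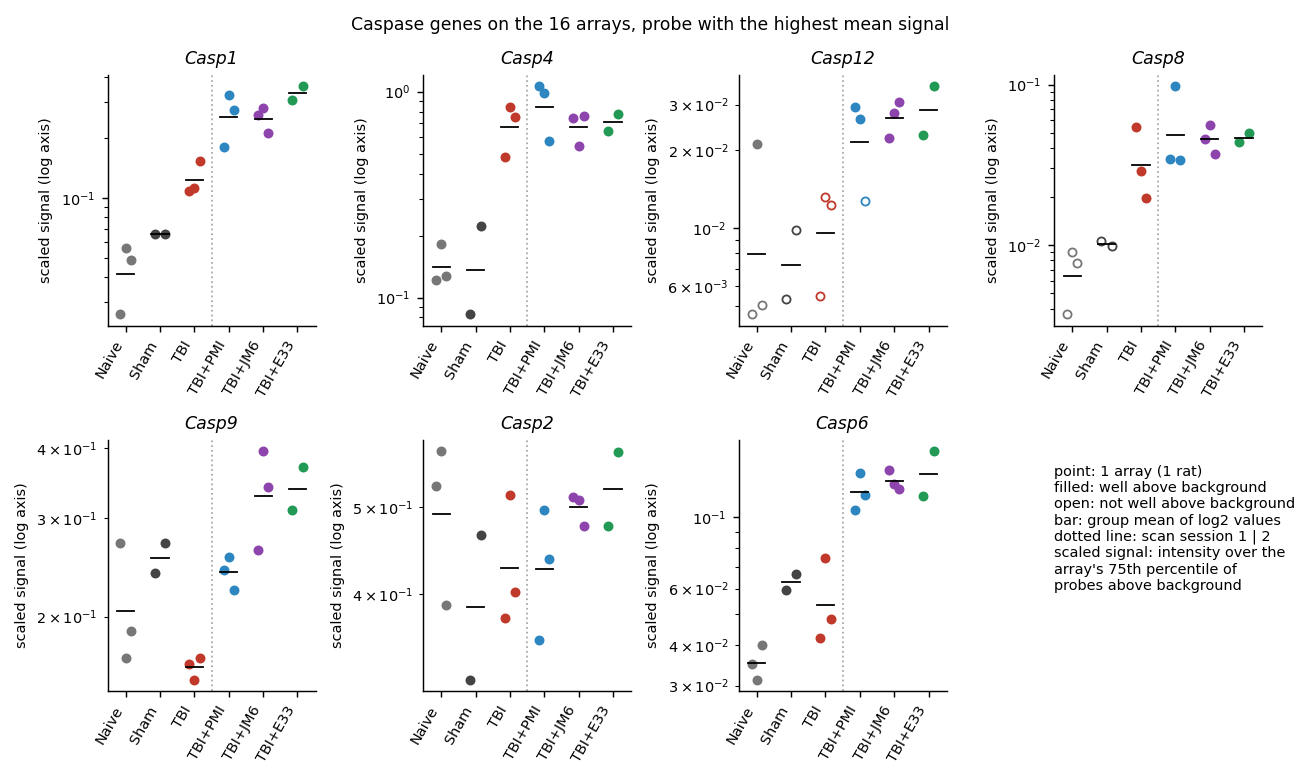
Scaled signal of the 7 caspase genes (log axis) on each of the 16 arrays by group, with filled points well above background, open points not, and bars at the group mean of log2 values. The 3 TBI arrays lie above all 5 uninjured arrays for Casp4, Casp1 and Casp8, and Casp8 is above background on none of those 5. The share of all tested probes with such a separation is not given.

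**Figure D2:**
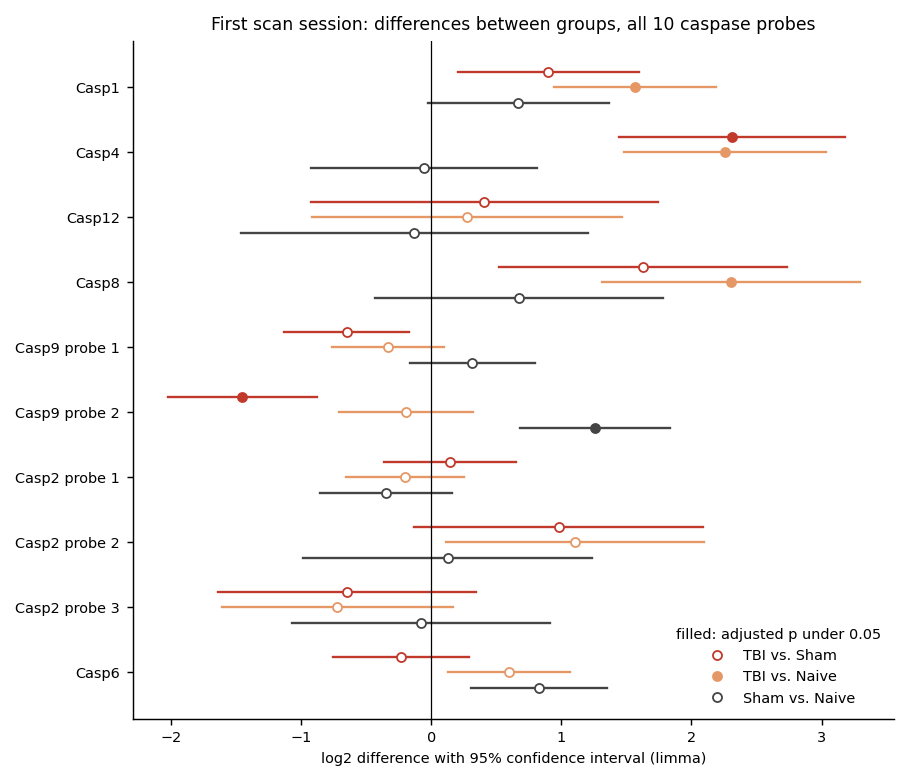
Log2 differences with 95% confidence intervals for all 10 caspase probes in the 3 comparisons of the first session, filled where the adjusted p was under 0.05. Casp4 is filled against both Sham and Naive, Casp1 and Casp8 against Naive, and the second Casp9 probe lies at -1.45 in TBI against Sham.

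Genes that act with these caspases were read from lists covering their pathways. Of 14 tested death receptors, ligands and adaptors, 4 were called higher and 1 lower in TBI against Sham (2.92% and 6.46% of all tested probes), with a list median of 0.71 on the log2 scale against -0.03 for all tested probes. Ripk3, the necroptosis kinase, was higher by 2.57 (SE 0.50, adjusted p = 0.0130) and Tnf by 2.45 (SE 0.56, adjusted p = 0.0206), each above background on 1 of 2 Sham arrays. Tnfrsf1a, the TNF receptor, was higher by 1.47 (SE 0.28, adjusted p = 0.0123), and Traf2, its adaptor, was lower (log2 -0.86, adjusted p = 0.0246). Traf2 was also called higher in Sham than in Naive (1.05, adjusted p = 0.0114), and TBI minus Naive was 0.18 (adjusted p = 0.632). Fadd, which links death receptors to caspase-8, was the other gene called but was not well above background on any TBI or Sham array. Against Naive 5 were called higher and 0 lower (2.98% and 1.73% of all tested probes). They were Tnf (2.67), Ripk3 (2.52), Tnfrsf1a (1.80), Fas and Fadd. Fas was above background on all 3 TBI and on 0 of 3 Naive arrays. Fadd was well above background on 0 of 3 TBI and 0 of 3 Naive arrays, so its call compares signals below detection.

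For 16 tested inflammasome sensors, adaptors and substrates the list median in TBI against Sham was 1.07, against -0.03 for all tested probes. Beside 2.92% and 6.46% of all tested probes, 4 of the 16 were called higher and 1 lower. They included Il1rn, the interleukin-1 receptor antagonist (log2 3.11, SE 0.77, adjusted p = 0.0287, above background on 1 of 2 Sham arrays), Gbp2 (1.73), Pycard, the adaptor that joins sensors to caspase-1 (1.33, SE 0.37, adjusted p = 0.0430), and Card9 (1.28). Nek7, a partner of the Nlrp3 sensor, was called lower (log2 -0.64), but it was called higher in Sham than in Naive (0.62, adjusted p = 0.0296) and TBI minus Naive was -0.02. Against Naive, Il1rn (2.80), Pycard (2.02), Gbp2 (1.94) and Gbp5 (0.99) were called higher and none lower, beside 2.98% and 1.73% of all tested probes. Of 11 apoptosome factors and caspase inhibitors 1, Birc5 (1.67), was called higher against Sham and 0 against Naive, beside 2.92% and 2.98% of all tested probes. Among 14 other caspases and substrates, Acin1 was called lower against Sham (log2 -1.41, where 6.46% of all probes were lower) and Bid, the caspase-8 substrate, higher against Naive (1.22). Bid was also called higher in Sham than in Naive (log2 1.205, adjusted p = 0.0066), and TBI minus Sham was 0.01. None of 14 endoplasmic reticulum stress genes was called in either comparison by limma, with list medians of 0.07 and 0.29 against -0.03 and 0.04 for all tested probes. With the slide as a block, the differences of all listed pathway genes called in TBI against Sham (12) or Naive (10) kept their direction, but 1 of the 12 (Tnf) and 2 of the 10 (Tnf and Tnfrsf1a) were still called.

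Several leukocyte markers moved with the injury comparison. Of 12 tested, 4 were called higher in TBI than in Sham and 5 than in Naive, with 0 lower in each, beside 2.92% and 2.98% of all tested probes higher. The monocyte gene Cd14 was higher by 3.09 and 4.21 on the log2 scale. Among the 5, Cd3e (4.05) was also called higher in Sham than in Naive (4.93), and its TBI minus Sham was -0.88 (adjusted p = 0.642). The summed scaled signal of the 12 markers was 0.896 to 1.03 in Naive, 1.34 to 1.86 in Sham and 2.36 to 9.18 in TBI. This sum is on the linear scale, so bright genes weigh most. Lyz2 had the highest mean of the 12 in each of these groups (log2 -0.56 in Naive, 0.06 in Sham and 1.04 in TBI). Lyz2 itself was not called by limma (adjusted p = 0.310 against Sham and 0.106 against Naive). Mpo was listed but not tested, and was above background on 0 of 16 arrays. S100a9, a neutrophil and monocyte gene, was above background on all 8 first-session arrays and was called higher in TBI than in Sham (2.95) and Naive (4.29). Its partner S100a8, above background on 3 of 3 TBI, 1 of 2 Sham and 0 of 3 Naive arrays, was called higher in both comparisons too. Of 12 microglial markers, 2 were called higher (Itgam, Tyrobp) and 2 lower (Tmem119, P2ry12) in TBI than in Sham, beside 2.92% and 6.46% of all tested probes. The summed signal of these markers was 21.1 to 24.5 in Naive, 20.0 to 33.8 in Sham and 31.3 to 38.0 in TBI. Against Naive 0 of the 12 were called by limma, and P2ry12 was called higher in Sham than in Naive (1.05, adjusted p = 0.0373). The part of these cells in the Casp1, Casp4 and Casp8 values was not tested, and in bulk hippocampus more cells of a type and more RNA per cell cannot be told apart. Among neuronal markers 3 of 10, and among oligodendrocyte markers 4 of 9, were called lower in TBI than in Sham, where 6.46% of all tested probes were, beside the lower Casp9 signal. Against Naive 0 of 10 and 0 of 9 were called lower, beside 1.73% of all tested probes. In Sham against Naive 2 and 2 were called higher, as the second Casp9 probe was, beside 6.55% of all tested probes. Choroid plexus markers summed to 3.78 to 82.0 in Naive, 7.17 to 129.6 in Sham, 1.07 to 4.89 in TBI and 2.07 to 171.2 in TBI+PMI. Their list median was -3.04 in TBI against Sham, with 0 of 9 called. The part of these markers in the caspase values was likewise not tested. With the slide as a block, 0 of the 18 marker genes called in TBI against Sham and 3 of the 7 called against Naive were still called.

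After subtraction of each session's mean, the genes whose log2 signal tracked a caspase most closely over the 16 arrays were Aspg (r = 0.97), Ccl2 (0.96) and S1pr3 (0.95) for Casp4. For Casp1 they were Tlr7 (0.93), Rasal3 (0.93) and Shmt1 (0.90), and for Casp8 they were Hells (0.89), Ticam2 (0.89) and Brip1 (0.88). Between caspases the highest value was that of Casp1 with Casp8 (0.83) and the lowest that of Casp4 with Casp9 (-0.55). These are descriptions over arrays that share their scan sessions and scaling.

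Upstream sequence was read for the 5 members with a RefSeq promoter entry (GRCr8; Casp1, Casp2, Casp6, Casp9 and Casp12). The 250 bases before the start of Casp1 and of Casp12 are shown because both genes lie in the chromosome 8 cluster and both hold the motif below. Capitals mark the core of the interferon-stimulated response element, searched as GAAANNGAAA on one strand or TTTCNNTTTC on the other.
Casp1, chr8:10872580-10872829: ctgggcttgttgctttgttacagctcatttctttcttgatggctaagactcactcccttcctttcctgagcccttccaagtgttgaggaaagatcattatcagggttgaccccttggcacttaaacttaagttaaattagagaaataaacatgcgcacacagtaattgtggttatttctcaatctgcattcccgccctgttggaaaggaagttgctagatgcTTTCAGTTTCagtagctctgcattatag
Casp12, chr8:10926938-10927187: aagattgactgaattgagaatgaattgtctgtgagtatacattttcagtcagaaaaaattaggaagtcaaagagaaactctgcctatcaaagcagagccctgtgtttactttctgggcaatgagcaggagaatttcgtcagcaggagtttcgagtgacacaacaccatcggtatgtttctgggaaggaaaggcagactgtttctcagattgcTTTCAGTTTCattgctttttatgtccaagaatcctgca

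The motif began 28 bases before the start of Casp1 and 38 bases before that of Casp12, within a shared run of 14 bases. It was found in 2 of the 5 member promoters and in 3.41% of 33469 rat promoters of the same length. The interferon-gamma activated site (TTCNNNGAA, which reads the same on both strands) was found in 1 of 5, that of Casp12, and in 7.67% of all. These matches describe letters only.

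For the drug-treated groups the first question was whether caspase levels stood above or below those of untreated injury. Casp4 was not called in any drug-treated group. Its scaled signals were 1.06, 0.978 and 0.577 in TBI+PMI, 0.646 and 0.780 in TBI+E33, and 0.745, 0.541 and 0.763 in TBI+JM6, all overlapping the TBI range of 0.482 to 0.843. Differences from TBI were 0.33 (95% confidence interval -0.45 to 1.10), 0.08 (-0.79 to 0.95) and 0.00 (-0.77 to 0.78) on the log2 scale. The median probe, however, was higher than in TBI by 0.79 in TBI+PMI, 1.08 in TBI+E33 and 0.995 in TBI+JM6, and relative to that median Casp4 stood at -0.46, -0.999 and -0.99. Under quantile normalization, which sets the distributions of all arrays equal, the differences were -0.25, -0.68 and -0.73, and none was called.

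That shift covered most of the array: against TBI, 56.7% of tested probes were called higher and 0.0482% lower for TBI+PMI. The shares were 70.2% and 0.092% for TBI+E33, and 69.9% and 0.175% for TBI+JM6. Of the 7 caspases, 3 were called higher in TBI+PMI, 4 in TBI+E33 and 4 in TBI+JM6, with 0 lower in each, shares no higher than those of all probes. These comparisons share the 3 TBI arrays. The summed signal of the 12 leukocyte markers was 10.2 to 16.4 in TBI+PMI, 11.1 to 17.7 in TBI+E33 and 14.1 to 16.7 in TBI+JM6. All lay above the TBI range. In the same order, the median log2 difference of these markers from TBI was 1.10, 1.47 and 1.35, beside 0.79, 1.08 and 0.995 for all tested probes. Under quantile normalization it was -0.23, 0.32 and 0.27. The part of these markers in the caspase values was not tested.

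Casp1 was called higher in all 3. Its values were 0.179, 0.328 and 0.274 in TBI+PMI, 0.308 and 0.362 in TBI+E33, and 0.260, 0.280 and 0.212 in TBI+JM6, above every TBI array. The differences were 1.04 (SE 0.29, adjusted p = 0.00869), 1.44 (SE 0.32, adjusted p = 0.00186) and 1.02 (SE 0.29, adjusted p = 0.00744), or 0.25, 0.36 and 0.02 relative to the median probe. Under quantile normalization the differences were 0.22, 0.42 and 0.01, and none was called.

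Casp6 ranged from 0.105 to 0.160 over the 8 drug-treated arrays, above the highest TBI array at 0.0745. It was called higher by 1.16, 1.35 and 1.28 (TBI+PMI, TBI+E33, TBI+JM6), and by 0.37, 0.28 and 0.29 relative to the median. Under quantile normalization its sign turned in TBI+E33 (-0.08) and TBI+JM6 (-0.01), neither called. The first Casp9 probe was called higher by 0.56 in TBI+PMI (0.242, 0.256 and 0.223 on the arrays), 1.06 in TBI+E33 (0.309 and 0.370) and 1.01 in TBI+JM6 (0.263, 0.395 and 0.341), or -0.23, -0.02 and 0.02 relative to the median. Under quantile normalization its sign turned in TBI+PMI (-0.23, not called).

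Casp12 was well above background on 7 of 8 drug-treated arrays and on 0 of 3 TBI arrays. Its values were 0.0294, 0.0264 and 0.0128 (the last not above background) in TBI+PMI, 0.0229 and 0.0354 in TBI+E33, and 0.0223, 0.0277 and 0.0308 in TBI+JM6. The limma fit, which applies no floor, gave 1.16 in TBI+PMI (adjusted p = 0.0875), 1.56 in TBI+E33 (adjusted p = 0.0370) and 1.47 in TBI+JM6 (adjusted p = 0.0299). Against the floor and under this scaling only, it was at least 1.78-fold higher in TBI+E33 and at least 1.67-fold in TBI+JM6. The same ratio was 1.34 in TBI+PMI, which is no strict bound because the last array was not above background. Under quantile normalization the differences became -0.60 in TBI+PMI, -0.79 in TBI+E33 and -0.64 in TBI+JM6. In the authors' matrix Casp12 was called lower in TBI+E33 (-1.28) and TBI+JM6 (-1.14), so no direction holds across scalings. Casp8 was above background on all 8 drug-treated arrays, from 0.0341 to 0.0980, and overlapped TBI. Its differences were 0.63, 0.57 and 0.53, and under quantile normalization -0.77, -1.46 and -1.21, none called in either.

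The first Casp2 probe was not called in these comparisons and the other probes were. The first probe differed from TBI by 0.00, 0.29 and 0.22 (TBI+PMI, TBI+E33, TBI+JM6), none called, and by about -0.79, -0.78 and -0.77 relative to the median. The second probe was above background on all 8 drug-treated arrays (0.0184 to 0.0538) and on 1 of 3 TBI arrays, and was called higher by 1.91, 2.61 and 2.06. The third was above background on 2 of 3 TBI arrays and was called higher by 1.63, 1.86 and 1.86. With TBI arrays below background, the size of these differences is not exact. Under quantile normalization the first probe stood at -0.65, -0.54 and -0.56 and was called lower in TBI+PMI and TBI+JM6. The second then stood at 0.55, 0.75 and 0.39 and the third at 0.06, -0.23 and 0.05, with no test run on these.

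**Figure D3:**
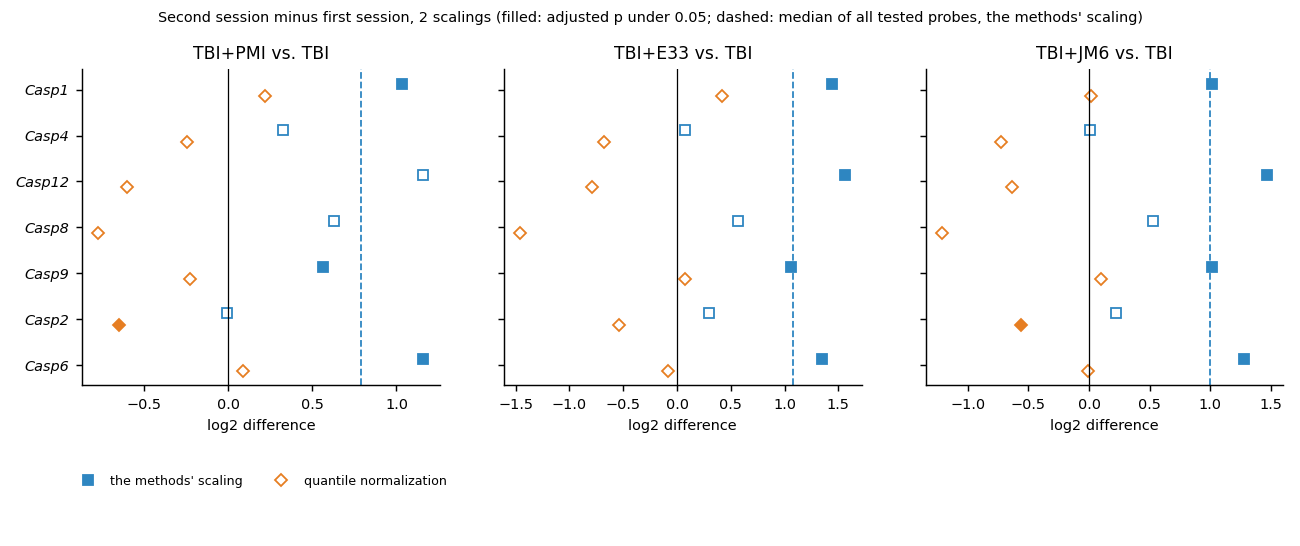
Log2 difference of each caspase gene between each drug-treated group and TBI under the methods' scaling (squares) and quantile normalization (diamonds), filled where the adjusted p was under 0.05; the dashed line is the median of all tested probes under the methods' scaling. Squares for Casp1, Casp6 and Casp9 lie on either side of the dashed line or on it, and Casp4 lies at 0.33 or less in all 3 panels.

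**Figure D4:**
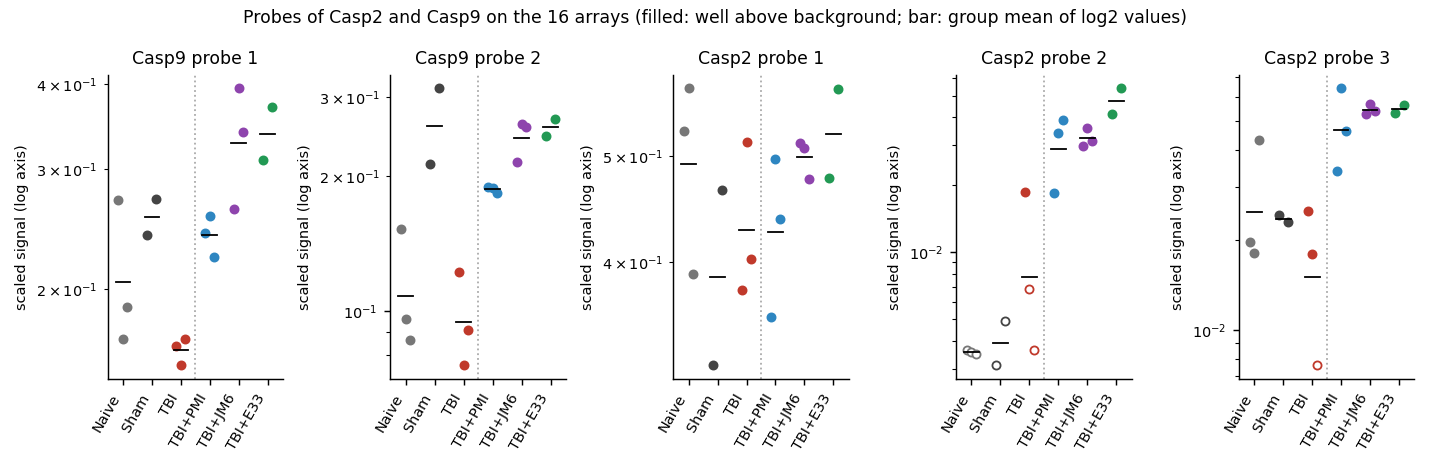
Scaled signal (log axis) of the 2 Casp9 and 3 Casp2 probes on each array, filled where well above background, with bars at the group mean of log2 values. The first Casp2 probe overlaps between TBI and each drug-treated group, whereas the second is above background on 1 of 8 first-session arrays and on all 8 drug-treated arrays.

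Within the second session the drugs could be set against each other without the change of session. Over 3 pairs of drug groups, 0 of 7 caspases were called in each. Of all tested probes, 0.0131% passed upward and 0% downward for TBI+JM6 minus TBI+PMI, 0.105% and 0.00438% for TBI+E33 minus TBI+PMI, and 0% and 0.0175% for TBI+JM6 minus TBI+E33. At an unadjusted p under 0.05, limma gave 1, 1 and 0 genes, and the methods' t-test passed 0, 1 and 0.

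Casp9 was the gene behind both unadjusted values. All 3 TBI+PMI arrays (0.223 to 0.256) lay below the 3 TBI+JM6 arrays (0.263 to 0.395) and below both TBI+E33 arrays (0.309 and 0.370). The difference was 0.45 for TBI+JM6 minus TBI+PMI (95% confidence interval 0.02 to 0.88, adjusted p = 0.539) and 0.50 for TBI+E33 minus TBI+PMI (0.02 to 0.98, adjusted p = 0.317). The second Casp9 probe gave 0.38 and 0.46 with the same order of arrays. The median of all probes was higher than in TBI+PMI by 0.18 in TBI+JM6 and 0.26 in TBI+E33, which leaves 0.28 and 0.24 for the first probe. On the slide that held both TBI+JM6 (1 array) and TBI+PMI (3 arrays) the difference was 0.13, and TBI+E33 and TBI+PMI shared no slide.

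For the other genes the intervals hold for the reported scaling without a slide term, and do not cover every alternative setting. Casp6 reached 0.82 for TBI+JM6 minus TBI+PMI and 0.54 for TBI+JM6 minus TBI+E33 among the alternatives. Casp4 differed by -0.32 for TBI+JM6 minus TBI+PMI (95% confidence interval -1.10 to 0.45), -0.25 for TBI+E33 minus TBI+PMI (-1.12 to 0.62) and -0.07 for TBI+JM6 minus TBI+E33 (-0.94 to 0.80). Casp1 differed by -0.02 (-0.64 to 0.60), 0.40 (-0.29 to 1.10) and -0.42 (-1.12 to 0.27) in the same order. Casp6, the executioner, differed by 0.12 (-0.34 to 0.59), 0.19 (-0.33 to 0.71) and -0.07 (-0.59 to 0.45). Casp2 differed by 0.23 (-0.22 to 0.68), 0.30 (-0.21 to 0.81) and -0.07 (-0.58 to 0.44). The intervals of Casp8 and Casp12 were wider, reaching as far as -1.42 and 1.74. No gene of the 5 pathway lists was called by limma in any of the 3 pairs.

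**Figure D5:**
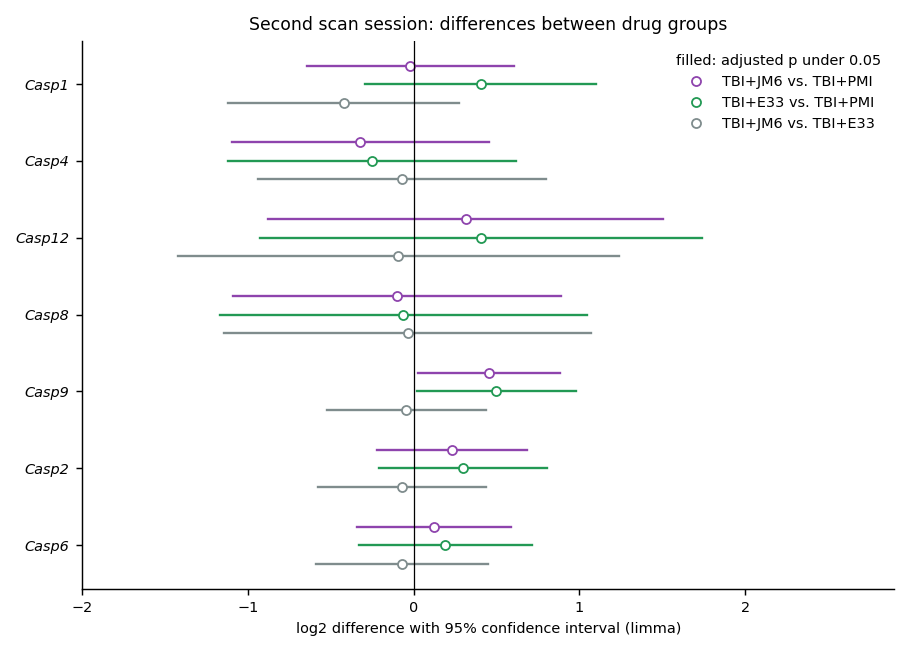
Log2 differences with 95% confidence intervals between drug-treated groups for the 7 caspase genes, open because none had an adjusted p under 0.05. The intervals of 2 comparisons for Casp9 lie above 0, and all others include it.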

How the data were processed

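RNA from rat hippocampus was amplified with 1 of 2 kits (which rat received which is not given in the sources used here), labelled and hybridised to Agilent 44K rat arrays in 1 colour. The intensity values deposited by the authors are spot signals from Agilent Feature Extraction 9.5.3.1 (background subtracted, with probe positions on rn4), and the ratio values in the deposited matrix are the authors' own normalized data, used only as an alternative. No spot or array total plays the part of a read depth, and the number of arrays limits the precision.

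Spots were averaged per probe without outlier flags, divided by the array's 75th percentile and put on the log2 scale. Probes well above background (on most of their spots) on every array of at least 1 group were tested with limma 3.58.1 in R 4.3.3, in 1 fit over 16 arrays (10 residual degrees of freedom, two-sided). Figures were drawn with Python 3.11.15 and matplotlib 3.10.9. The fit was tested on simulated data. Rats were separate biological replicates per the study's design text. The alternatives were other scalings, background correction, filters, probe rules, slide and replicate blocks, fewer arrays and, as in the study's methods, a t-test passed at a fold over 1.2 and p under 0.05 without adjustment. Members, lists and the rule for named genes were chosen with earlier results of these data known: every caspase probe, up to 4 called genes per list and comparison, and the 3 genes most correlated with a called member. A single listed marker is not reported here and was left out of its list.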

Additional observations from a re-analysis of the deposited data

How the results depend on the processing

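The counts of caspases called, all higher, were 1 in TBI vs. Sham, 3 in TBI vs. Naive and 0 in Sham vs. Naive. They were 3 in TBI+PMI vs. TBI, 4 in TBI+E33 vs. TBI, 4 in TBI+JM6 vs. TBI and 0 in each pair of drugs. The shares of all tested probes are given above for this setting but not for the others. A changed count therefore cannot be read as particular to caspases. The counts changed as follows, with no cause tested. Quantile normalization gave 1 in TBI+PMI vs. TBI, 0 in TBI+E33 vs. TBI and 1 in TBI+JM6 vs. TBI. Both of these calls were Casp2, called lower. The 75th percentile over all probes gave 2 in TBI vs. Sham and 1, 0 and 1 in those drug comparisons, with Casp2 called lower in TBI+JM6. Normexp background correction gave 0 in TBI vs. Sham, 1 in TBI vs. Naive and 0, 0 and 1 against TBI for PMI, E33 and JM6. The authors' matrix gave 1, 1 and 2 there, and those in TBI+E33 (Casp12) and TBI+JM6 (Casp2 and Casp12) were called lower. Probes above background on all arrays gave 1 in Sham vs. Naive and 2 in TBI vs. Naive (Casp8 not tested), and averaging the probes of each gene gave 2 in TBI vs. Sham. The slide as a fixed block and the compared groups alone each gave 0 in TBI vs. Sham and 0 in TBI vs. Naive. The methods' t-test gave 3 in TBI vs. Sham, 1 in Sham vs. Naive and 1 in TBI+E33 vs. TBI+PMI. After Benjamini-Hochberg adjustment, a setting added after seeing the data, it gave 0 in TBI vs. Sham, 0 in TBI vs. Naive and 2 in TBI+E33 vs. TBI. Leaving out 1 array at a time gave 0 to 1 in TBI vs. Sham, with 0 only without Sham replicate 1, and 2 to 3 in TBI vs. Naive, with 2 without Naive replicate 1 or TBI replicate 3. It gave 2 to 4, 3 to 4 and 3 to 4 against TBI for PMI, E33 and JM6.

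Among differences from TBI called in the reported or the alternative setting, the sign turned for 4 genes. Under quantile normalization, Casp9 was -0.228 in TBI+PMI, Casp6 -0.0825 and Casp12 -0.790 in TBI+E33, and Casp2 -0.563, Casp6 -0.0125 and Casp12 -0.635 in TBI+JM6. With the 75th percentile over all probes, Casp9 was -0.0832 in TBI+PMI and Casp2 -0.564 in TBI+JM6. In the authors' matrix, Casp9 was -0.211 in TBI+PMI, Casp6 -0.0300 and Casp12 -1.28 in TBI+E33, and Casp2 -0.547, Casp6 -0.0260 and Casp12 -1.14 in TBI+JM6. With the probes of each gene averaged, Casp2 was 1.18 in TBI+PMI. Among differences called in neither setting, quantile normalization also turned the sign of Casp4 (-0.25, -0.68 and -0.73) and Casp8 (-0.77, -1.46 and -1.21) in TBI+PMI, TBI+E33 and TBI+JM6, of Casp12 in TBI+PMI (-0.60) and of Casp2 in TBI+E33 (-0.54). The slide block for listed genes and the settings for the second Casp9 probe were added after seeing the data.

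Replicate numbers did not pair the rats: same-numbered arrays' deviations from their group means correlated at -0.185 to 0.182. A replicate block gave 1 caspase in TBI vs. Sham, 3 in TBI vs. Naive and 4 in TBI+PMI vs. TBI, and it changed no other count.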
